A study of Mus musculus with 12 samples.

Results

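The 10 genes described here encode pro- and anti-apoptotic proteins of the Bcl2 family: Bcl2, Bcl2l1, Mcl1, Bax, Bak1, Bcl2l11, Pmaip1, Bbc3, Bid and Bmf. They were chosen as a named list, by symbol, from the 51467 mouse genes of a count table whose identifiers were paired with symbols through the GENCODE annotation, and each symbol matched 1 gene. RNA was measured in mouse embryonic stem cells (ESCs) and in epiblast-like cells (EpiLCs), as newly made RNA and as total RNA, with 3 libraries for each of the 4 combinations of cell type and assay. ESCs were kept in 15% serum with LIF and the inhibitors PD0325901 and CHIR99021 (2i), which hold them in a naive state. EpiLCs were made from the same ESCs by taking LIF and 2i away 24 hours after plating and collecting about 56 hours later, which moves the cells toward a formative state. For the differentiation the study used a V6.5 ESC line that carries fluorescent reporters of the miR-290 and miR-302 clusters, a single line with no genetic change compared between the groups. Every culture, whichever the cell type, received 500 µM 4-thiouridine (4sU), a uridine analogue built into RNA as it is made, for 30 minutes before lysis. The RNA was then divided into a part from which the labelled molecules were purified (4sU libraries, here nascent RNA) and a part sequenced as total RNA (total libraries).

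Proteins of the Bcl2 family decide whether the outer membrane of mitochondria is opened, the step that releases cytochrome c and starts the caspases of the intrinsic apoptosis pathway. Bax and Bak1 are the effectors that form the pores, the anti-apoptotic proteins BCL2, BCL-XL (from Bcl2l1) and MCL1 hold them in check, and the BH3-only proteins BIM (Bcl2l11), NOXA (Pmaip1), PUMA (Bbc3), BID and BMF relay stress or developmental signals by binding the anti-apoptotic proteins or the effectors. Pluripotent cells are known for a low threshold for mitochondrial apoptosis, and the epiblast for cell death around implantation.

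The 4sU libraries held 3097693 to 5385644 reads assigned to genes and the total libraries 9300845 to 21975684. All 10 naive markers examined were lower in EpiLC total RNA and 6 of 7 primed markers were higher, so the libraries matched their labels. Of 3 general pluripotency markers, Sox2 was called lower in EpiLCs in total RNA (log2 fold change -3.55) and nascent RNA (-3.41). Pou5f1 (-0.77 in total RNA) and Sall4 (0.05) were called in neither, and Pou5f1 was called lower in the ratio of total to nascent RNA (-1.05). Along principal component 3, which held 2.35% of the variance, both ESC libraries numbered 3 stood apart from the rest. They lay at -46.58 (4sU) and -30.9 (total), against -10.01 to 27.05 for the other 10. For the members, values without them are given where a call or a side of the adjusted p changes, or where a fold change moves by over 1.5 times. In bulk RNA a gene at a lower level in every cell cannot be told apart from a gene expressed by fewer cells. The study speaks of biological replicates, but the labels do not say that the libraries of a group came from separate cultures, so p-values measure the spread between these samples, which may be in part technical.

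The 3′ UTRs of the members differ in length and in their content of 2 short motifs, of which the first is shown because the members with and without it differ in the ratio of total to nascent RNA described further on, and the second because the reporter line marks the microRNAs that read it. The first motif is TATTTAT, a core of AU-rich elements, which recruit proteins that shorten an mRNA's life. In 1 GENCODE transcript a gene it matched 2 times in Bcl2 (3′ UTR of 5086 bases), 1 time in Bcl2l1 (1473 bases), 3 times in Mcl1 (2353 bases), 2 times in Bcl2l11 (4218 bases) and 4 times in Pmaip1 (2187 bases). It was not found in the 3′ UTRs of Bax (165 bases), Bak1 (1121), Bbc3 (971), Bid (1427) or Bmf (3801). Of the 12154 protein-coding genes tested that have an annotated 3′ UTR, 29.3% held at least 1 match, with a median 3′ UTR of 1066 bases. The sites below are written 5′ to 3′ on the gene's strand with the motif in capitals and its position counted from the first base after the stop codon (build mm10).

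Bcl2, position 252, chr1:106542994-106543023, minus strand: aaaaaaagattTATTTATttaagacagttc

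Bcl2, position 3331, chr1:106539915-106539944, minus strand: aggcatattctTATTTATtacatctaagag

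Bcl2l1, position 1236, chr2:152780891-152780920, minus strand: aagcgtgtctgTATTTATgtgtgaggagct

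Bcl2l11, position 3025, chr2:128161343-128161372, plus strand: gagatgttgtaTATTTATtttccgcttatt

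Mcl1, position 70, chr3:95660882-95660911, plus strand: gaaaacatgtgTATTTATgaaggtggactt

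Mcl1, position 1791, chr3:95662603-95662632, plus strand: catagtttgctTATTTATgtttaactcttc

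The second motif is the site read by the seed (bases 2 to 8, in capitals) shared by miR-294-3p, miR-302b-3p and their relatives, the most abundant microRNAs of early pluripotent cells, which come from the clusters the reporter line marks. Mature sequences are from RefSeq (GRCm38.p6).

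miR-294-3p: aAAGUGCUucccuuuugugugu

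miR-302b-3p: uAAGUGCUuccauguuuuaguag

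A seed match, AGCACTT or GCACTTA on the transcript's strand, occurred 3 times in the 3′ UTR of Bcl2l11, 2 times in Bcl2 and 1 time each in Mcl1 and Bmf, and was not found in the other 6 members. Among the same 12154 genes, 19.7% held at least 1. The 3 sites of Bcl2l11 and 1 of the sites of Bcl2 read as follows, with the match in capitals. A match of letters is not a measured site.

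Bcl2l11, position 1251, chr2:128159569-128159598, plus strand: atgccgagtaaAGCACTTgtcttccacaag

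Bcl2l11, position 1448, chr2:128159766-128159795, plus strand: cctggtggaggAGCACTTtctaacctgtgg

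Bcl2l11, position 2122, chr2:128160440-128160469, plus strand: tccccgactggAGCACTTtactgtctcagc

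Bcl2, position 3216, chr1:106540030-106540059, minus strand: acagttaagggAGCACTTtcatgtagttca

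To ask which members change in level when ESCs become EpiLCs, total RNA was compared between the cell types. Bcl2, Bcl2l11 and Pmaip1 rose, 1 anti-apoptotic gene and 2 BH3-only genes, no member fell, and 7 did not pass the test. The test was limma-voom across all 14731 genes kept, and a gene was called when its Benjamini-Hochberg adjusted p was under 0.05 and its log2 fold change beyond 1 in either direction. By the same rule 27.6% of all genes tested were called in total RNA (16.3% higher and 11.2% lower in EpiLCs), so 3 of 10 is near the share of all genes. The median log2 fold change of the members was 0.03 and that of all genes 0.02. Levels are given as CPM, reads of a gene scaled to a common library size with TMM factors.

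Among the anti-apoptotic genes, Bcl2 was nearly absent from ESC total RNA. This gene on the minus strand of chromosome 1 (ENSMUSG00000057329.7, chr1:106538178-106714274), which spans 176.097 kb, encodes the founding survival protein of the family. It had 7, 8 and 10 reads in the 3 ESC total libraries and 297, 305 and 272 in the EpiLC total libraries. In ESC total RNA that was 0.408, 0.405 and 0.988 CPM. The exact 95% Poisson intervals of these 3 values, which cover counting error only, were 0.164 to 0.84, 0.175 to 0.797 and 0.474 to 1.82 CPM. In EpiLC total RNA the levels were 33.3, 29.0 and 27.2 CPM, so every EpiLC library lay far above every ESC library and ESC library 3 lay above the other two. The log2 fold change was 5.79 ± 0.34 (SE; adjusted p = 2.43e-09), the largest of the 10 members, a 55.3-fold rise. Bcl2 passed the filter on low counts through its EpiLC libraries. Without both ESC libraries numbered 3, its log2 fold change was 6.09.

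Mcl1 and Bcl2l1, the other two survival genes, moved little in comparison and in opposite directions. Mcl1 (chr3:95658788-95663176, plus strand), whose protein is short-lived and is needed by the early embryo, was measured at 550, 543 and 421 CPM in ESC total RNA and at 607, 633 and 640 CPM in EpiLC total RNA. Its groups did not overlap, and its log2 fold change of 0.32 ± 0.10 had an adjusted p of 0.0159 but was below the fold asked of a call. Without ESC total library 3 it was 0.19 (adjusted p = 0.0504), and without both ESC libraries numbered 3 it was 0.19 (adjusted p = 0.0163). Bcl2l1 (chr2:152780668-152831728, minus strand), which encodes BCL-XL, was measured at 53.7, 54.8 and 36.9 CPM in ESCs and at 31.4, 29.2 and 31.5 CPM in EpiLCs. All EpiLC libraries lay below all ESC libraries, ESC library 3 being the nearest to them, and the log2 fold change was -0.66 ± 0.13 (adjusted p = 4.96e-04), again short of a call.

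The 2 effectors were at lower mean levels in EpiLCs, without a call. Bak1 (chr17:27019810-27029009, minus strand) had 94.7, 95.7 and 76.7 CPM in ESC total RNA and 61.2, 55.3 and 59.2 CPM in EpiLC total RNA. These groups did not overlap, and the log2 fold change was -0.61 ± 0.10 (adjusted p = 1.05e-04). Bax (chr7:45461697-45466898, minus strand) had 126, 126 and 89.5 CPM in ESCs and 90.4, 97.0 and 96.2 CPM in EpiLCs. Its groups overlapped because ESC library 3 lay below all EpiLC libraries, and the log2 fold change of -0.26 ± 0.11 had an adjusted p of 0.0543. Without ESC total library 3 it was -0.42 (adjusted p = 9.08e-05), and without both ESC libraries numbered 3 it was -0.43 (adjusted p = 3.33e-06), past the adjusted p but still short of the fold. With all libraries, the adjusted p of Bax also depended on the processing. It was 0.0394 with median-of-ratios size factors, 0.0422 with a replicate block, 0.0441 with DESeq2 and 1.4e-05 with sample quality weights. With edgeR it was 0.0539, and with library totals 0.16. Bak1 shares 177 of 2387 exonic bases with Ggnbp1 on the opposite strand, which the strand-specific counting keeps apart. Bax shares 192 of 867 with Gm45808 on its own strand, which had 0 reads in every total library. Reads over these shared bases may have been left out of the counts, so the levels of Bax may be too low. This was not tested.

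The BH3-only genes divided into 2 that rose past the threshold, 1 that was higher by less, and 2 that were lower by less. Pmaip1, which encodes NOXA, a partner of MCL1, was at 61.4, 58.3 and 49.7 CPM in ESC total RNA and at 247, 256 and 250 CPM in EpiLC total RNA. The groups lay far apart and the log2 fold change was 2.15 ± 0.11 (adjusted p = 4.35e-10), a 4.44-fold rise. Bcl2l11 (chr2:128126038-128162547, plus strand), which encodes BIM, a BH3-only protein that binds all the anti-apoptotic members, was at 18.1, 19.8 and 24.9 CPM in ESCs and at 57.6, 60.8 and 63.7 CPM in EpiLCs. Its groups did not overlap either, and the log2 fold change was 1.57 ± 0.10 (adjusted p = 6.62e-09), a 2.97-fold rise. Bbc3 (chr7:16309616-16318205, plus strand), which encodes the p53 target PUMA, was at 35.5, 29.0 and 35.8 CPM in ESCs and at 56.0, 57.9 and 59.3 CPM in EpiLCs. All its EpiLC libraries were higher, with a log2 fold change of 0.80 ± 0.14 (adjusted p = 1.86e-04) that was not called.

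Bid and Bmf went the other way. Bid (chr6:120892854-120916853, minus strand), whose protein is cut by caspase-8 and so joins the death receptor pathway to mitochondria, was at 65.3, 66.2 and 51.8 CPM in ESC total RNA and at 41.3, 42.4 and 42.6 CPM in EpiLC total RNA. The groups did not overlap, and the log2 fold change was -0.54 ± 0.11 (adjusted p = 6.13e-04). Bmf (chr2:118528757-118549687, minus strand), which encodes a BH3-only protein linked to detachment and the cytoskeleton, was at 45.3, 43.8 and 26.4 CPM in ESCs and at 27.0, 26.7 and 26.6 CPM in EpiLCs. Its ESC library 3 lay just below all EpiLC libraries, so that the groups overlapped, and the log2 fold change was -0.51 ± 0.17 (adjusted p = 0.0172). Without both ESC libraries numbered 3 it was -0.74 (adjusted p = 6.43e-08), while leaving out ESC total library 1 or 2 gave -0.39 (adjusted p = 0.0762) and -0.41 (adjusted p = 0.0764), and leaving out EpiLC total library 2 or 3 gave adjusted p-values of 0.0509 and 0.0505. By adjusted p alone, with no minimum fold, 5 members were higher and 4 lower in EpiLC total RNA, beside 63.5% of all genes (31.4% higher and 32.1% lower).

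**Figure D1:**
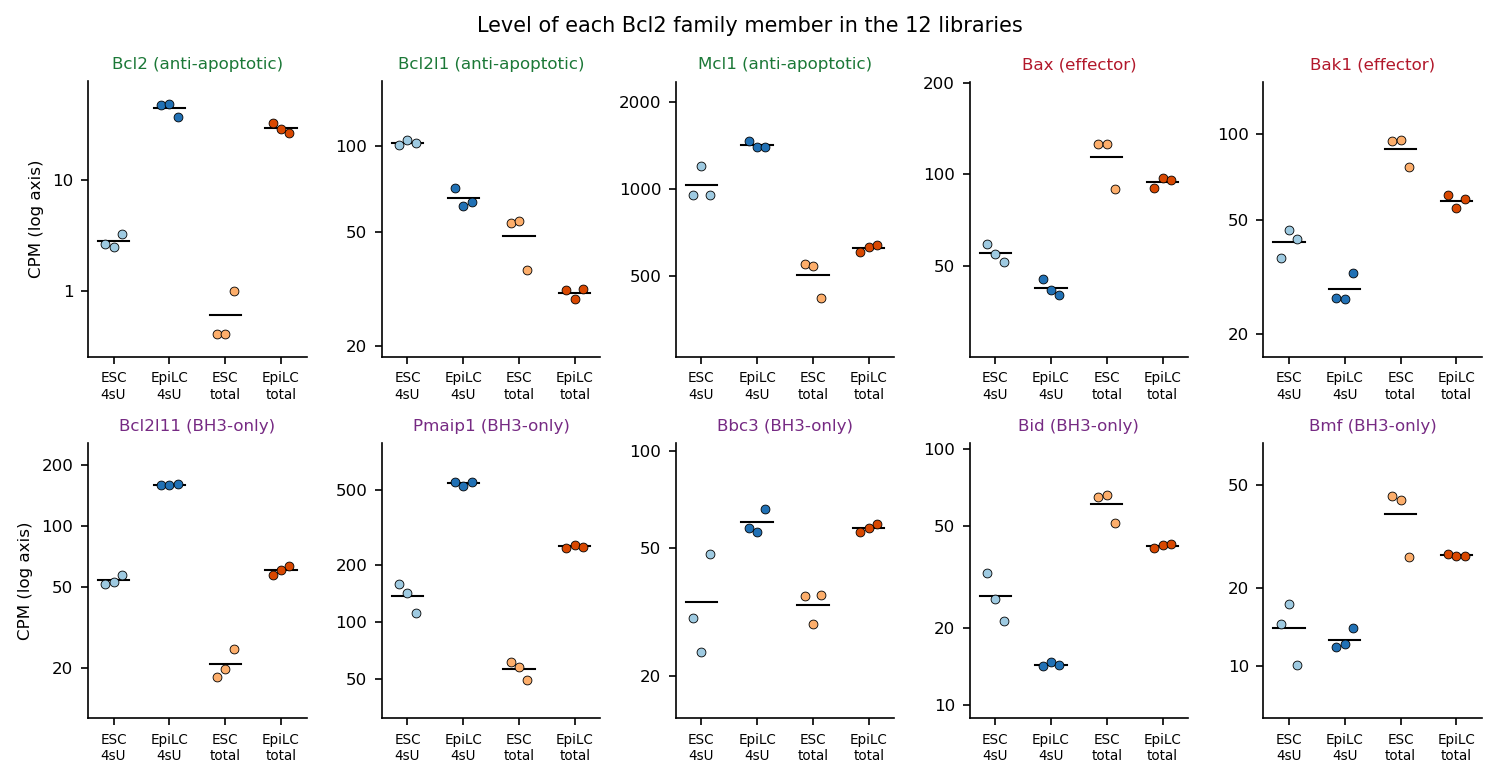
Level of each member in CPM (log axis, scaled separately in each panel) in the 3 libraries (points, left to right replicates 1 to 3) of each group, with the group mean as a bar. Bcl2, Bcl2l11 and Pmaip1 are higher in EpiLCs in both assays, and in total RNA ESC library 3 lies below the other two for Bcl2l1, Mcl1, Bax, Bak1, Pmaip1, Bid and Bmf.

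Of the markers of other cell types, the fibroblast and primitive endoderm sums were higher in EpiLC total RNA and the haematopoietic sum was higher in ESC total RNA, while the ranges of the mesendoderm sum overlapped. The 7 fibroblast markers (Col1a1, Col1a2, Col3a1, Thy1, Postn, Dcn and Lum) summed to 3.9 to 4.76 CPM in ESC total RNA, where 2 of the 7 were at 0, and to 14.7 to 19.0 CPM in EpiLC total RNA, where 1 was at 0. Of the 3 that passed the filter on low counts, Dcn (log2 fold change 7.21) and Col1a2 (4.57) were called higher in EpiLCs. Their means were 2.42 and 2.22 CPM, and Thy1 was not called (0.55). The 6 primitive endoderm markers summed to 3.38 to 9.58 CPM in ESC total RNA and to 16.9 to 18.5 in EpiLC total RNA, with none at 0 in either group, and the 5 mesendoderm markers to 17.3 to 28.2 and 20.6 to 31.3, also with none at 0. The primitive endoderm markers did not move together, and 4 of the 6 were under 1 CPM in each group. Dab2 (log2 fold change 4.87) and Gata4 (1.24, with overlapping groups) were called higher in EpiLCs, and Sox17 (-4.13, at a mean of 0.85 CPM) lower. The part of such cells in the rises of Bcl2, Bcl2l11 and Pmaip1 was not tested. The 4 haematopoietic markers summed to 44.2 to 61.9 CPM in ESC total RNA, where 2 of 4 were at 0, and to 1.4 to 1.79 CPM in EpiLC total RNA, where 1 was at 0. This sum rests mostly on Laptm5, the 1 of the 4 that passed the filter on low counts. Its log2 fold change was -5.89 at a mean of 27.5 CPM over the total libraries of both cell types.

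Nascent RNA was compared in the same way to see whether the same members change in newly made RNA. Again Bcl2, Bcl2l11 and Pmaip1 rose, no member fell and 7 did not pass the test, beside 25.5% of all genes tested (11.9% higher and 13.5% lower). The median log2 fold change of the members was 0.14 and that of all genes -0.09. Bcl2 had 13, 14 and 12 reads in the ESC 4sU libraries, or 2.67, 2.52 and 3.27 CPM, and 204, 231 and 127 reads in the EpiLC 4sU libraries, or 48.3, 49.2 and 37.9 CPM. The groups were far apart, with a log2 fold change of 3.99 ± 0.29 (adjusted p = 9.84e-08). Pmaip1 was at 158, 142 and 111 CPM in ESC nascent RNA and at 552, 522 and 547 CPM in EpiLC nascent RNA. Its log2 fold change of 1.98 ± 0.11 (adjusted p = 4.56e-09) was a 3.95-fold rise between groups that did not overlap. Bcl2l11 was at 51.8, 53.2 and 57.2 CPM in ESCs and at 160, 159 and 160 CPM in EpiLCs, also without overlap. Its log2 fold change of 1.57 ± 0.10 (adjusted p = 3.13e-08) equalled that in total RNA to 2 decimals. In the same 4sU libraries the mesendoderm markers summed to at most 28.4 CPM in ESCs and to 43.5 to 96.6 in EpiLCs (1 of 5 at 0 in each), and the primitive endoderm markers to at most 14.6 in ESCs and to 28.6 to 38.8 in EpiLCs (none at 0). Of the latter, Dab2 was called higher in EpiLC nascent RNA (log2 fold change 4.19), Sox17 lower (-1.98) and Gata4 neither (0.53). Of the mesendoderm markers, T was called higher (4.24), while Mixl1 (0.998) and Eomes (0.97) were not called. The fibroblast markers summed to 2.06 to 2.73 CPM in ESCs (4 of 7 at 0) and 4.5 to 5.37 in EpiLCs (1 at 0), and the haematopoietic markers to 36.0 to 49.3 and 0.298 to 1.89 (1 of 4 at 0 in each). Dcn (3.99) and Col1a2 (2.92) were called higher in EpiLC nascent RNA, at means of 0.85 and 0.59 CPM, and Thy1 (-0.68) was not called. The part of such cells in the nascent rises was not tested.

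Of the 7 members without a call in nascent RNA, Bbc3 and Bid were nearest to the fold threshold, and their calls turned on 1 library. Bbc3 was at 30.4, 23.7 and 48.0 CPM in the ESC 4sU libraries and at 57.8, 56.2 and 66.2 CPM in the EpiLC 4sU libraries, with ESC library 3 well above the other two but below all EpiLC libraries. Its log2 fold change was 0.92 ± 0.19 (adjusted p = 8.37e-04). Leaving out ESC 4sU library 3 put it past the threshold (adjusted p = 5.31e-05), leaving out both ESC libraries numbered 3 gave 1.13 (adjusted p = 1.31e-06), and with sample quality weights and all libraries it was 1.09. Bid was at 32.9, 26.1 and 21.3 CPM in ESCs and at 14.2, 14.7 and 14.3 CPM in EpiLCs, with a log2 fold change of -0.88 ± 0.20 (adjusted p = 1.99e-03). Without ESC 4sU library 3 it was -1.02 (adjusted p = 8.55e-04), so that 5 members instead of 3 were then called, 4 higher and 1 lower, and without both ESC libraries numbered 3 it was -1.03 (adjusted p = 7.12e-06).

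The other 5 members differed by less in nascent RNA. Mcl1 was at 956, 1198 and 951 CPM in ESCs and at 1469, 1394 and 1392 CPM in EpiLCs, with a log2 fold change of 0.46 ± 0.11 (adjusted p = 2.22e-03). Bcl2l1 was at 101, 105 and 103 CPM in ESCs and at 71.5, 61.8 and 63.8 CPM in EpiLCs, a log2 fold change of -0.65 ± 0.14 (adjusted p = 1.16e-03). The groups of neither gene overlapped. The log2 fold changes were -0.57 ± 0.15 for Bak1 (adjusted p = 6.01e-03), -0.38 ± 0.16 for Bax (adjusted p = 0.0562) and -0.17 ± 0.33 for Bmf (adjusted p = 0.686). Without both ESC libraries numbered 3 they were -0.44 for Bax (adjusted p = 7.95e-04) and -0.38 for Bmf (adjusted p = 0.0551). Leaving out ESC total library 1, 2 or 3 alone gave Bax adjusted p-values of 0.0453, 0.0469 and 0.0034, and leaving out ESC 4sU library 2 or 3 gave Bmf log2 fold changes of -0.0048 and -0.37. With all libraries, the adjusted p of Bax was 0.0259 with edgeR, 0.024 with a replicate block and 0.00698 with sample quality weights. With DESeq2 it was 0.0687, and with median-of-ratios size factors 0.108. Bmf had 37 to 97 reads in the 4sU libraries, and its 95% interval, -0.87 to 0.53, spans a difference in either direction. By adjusted p alone, 5 members were higher and 3 lower, beside 52.5% of all genes (23.7% higher and 28.8% lower).

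Whether total RNA changed by more or less than nascent RNA was tested with the interaction of cell type and assay, which the study reads as a change in mRNA stability. Bcl2 was the 1 member called, with a log2 difference of 1.80 ± 0.45 between its changes in total and in nascent RNA (95% interval 0.85 to 2.76, adjusted p = 0.037), and 9 of 10 members did not pass the test. Among all genes tested, 1.54% were called (1.24% higher and 0.305% lower in EpiLCs). By adjusted p alone Bcl2 was again the 1 member past the threshold, beside 4.6% of all genes (2.72% higher and 1.88% lower). Bcl2 total RNA thus rose by 1.80 more on the log2 scale than its nascent RNA. The estimate rests on 7 to 14 reads in each ESC library. Leaving out any library other than ESC total library 3 moved the adjusted p over the threshold, to between 0.0544 and 0.12, with log2 differences from 1.59 to 1.90. Without ESC total library 3 the difference was 2.11 (adjusted p = 8.55e-03), and without both ESC libraries numbered 3 it was 2.03 (adjusted p = 8.46e-03). With no filter on low counts it was 1.68 (adjusted p = 0.0638). Of the 3 fibroblast markers tested, Dcn was also called higher by this interaction (3.22, adjusted p = 0.015), at a mean of 1.63 CPM. Col1a2 (1.65) and Thy1 (1.23) were not called. The part of such cells in the Bcl2 difference was not tested.

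For the other members the intervals of the interaction say how large a difference could have been missed. The narrowest was that of Bcl2l11, at 0.01 with a 95% interval of -0.30 to 0.32. Mcl1 followed at -0.14 (-0.46 to 0.17) and Pmaip1 at 0.17 (-0.15 to 0.49). For 8 of these 9 members a difference of 1 on the log2 scale lies outside the interval. The widest was that of Bmf, at -0.34 (-1.13 to 0.45), which does not leave out a fall of 1. Bid had the largest positive value after Bcl2, at 0.34 (-0.15 to 0.83). Without both ESC libraries numbered 3, Bcl2l1 went from -0.0054 to -0.15, Bcl2l11 from 0.0063 to 0.089 and Bax from 0.11 to 0.016. Bak1 went from -0.038 to -0.13 and Bbc3 from -0.12 to -0.29, and none of these was called. The median over the 10 members was 0.00047, against 0.11 for all genes.

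**Figure D2:**
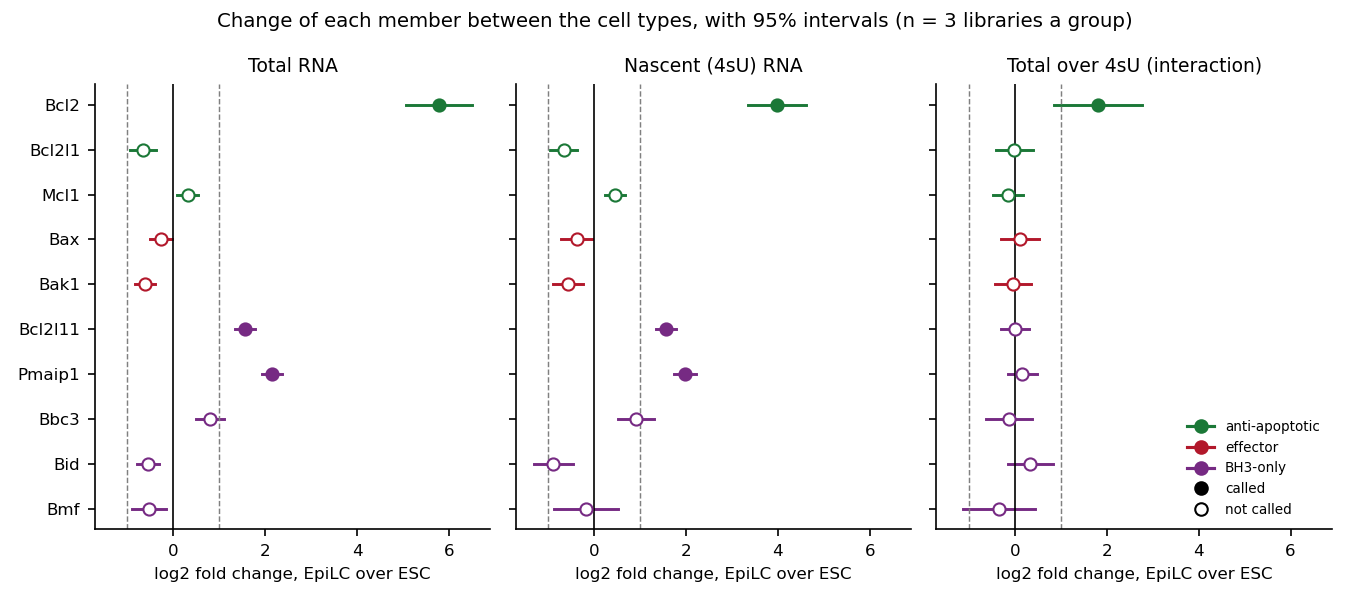
Log2 fold change of EpiLC over ESC for each member in total RNA, in nascent RNA and in the ratio of total to 4sU RNA (the interaction), with 95% intervals from limma-voom. Filled circles are called, colours give the class, and dashed lines mark -1 and 1. Bcl2, Bcl2l11 and Pmaip1 are called in the left and middle panels and Bcl2 alone on the right.

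Within each cell type, the log2 ratio of total to 4sU CPM ranks genes by relative stability, a high ratio being read as a long-lived mRNA. It was computed in each pair of libraries of 1 number and is described here without a test. The members split into a low and a high set in both cell types. The low set in ESCs was Bcl2 at -2.33 ± 0.53 (SD, n = 3), Bcl2l11 at -1.38 ± 0.16, Pmaip1 at -1.27 ± 0.10, Bcl2l1 at -1.11 ± 0.32 and Mcl1 at -1.04 ± 0.21. These values lay between the 14.3rd and the 26.6th percentile of all 14731 genes. The high set was Bax at 1.03 ± 0.21, Bak1 at 1.07 ± 0.26, Bid at 1.20 ± 0.19 and Bmf at 1.44 ± 0.16, between the 76.9th and the 85.9th percentile. Bbc3, at 0.03 ± 0.39, lay between them at the 49.8th.

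The same genes made up the sets in EpiLCs. Bcl2l11 was the lowest at -1.40 ± 0.07, followed by Mcl1 at -1.18 ± 0.08, Pmaip1 at -1.10 ± 0.07, Bcl2l1 at -1.10 ± 0.08 and Bcl2 at -0.59 ± 0.15, from the 18.7th to the 31st percentile. Bak1 at 1.03 ± 0.17, Bmf at 1.07 ± 0.14, Bax at 1.15 ± 0.14 and Bid at 1.54 ± 0.02 lay from the 76th to the 88th, and Bbc3 at -0.06 ± 0.10 lay at the 44th. Bcl2 thus moved from the 14.3rd to the 31st percentile, while its 3 ESC ratios were -2.67, -2.60 and -1.72 and its 3 EpiLC ratios -0.54, -0.76 and -0.48. The low set held all 3 anti-apoptotic genes and the BH3-only genes Bcl2l11 and Pmaip1, and the high set held both effectors and the BH3-only genes Bid and Bmf.

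The 5 members of the low set were the 5 with a TATTTAT match in the 3′ UTR, and the 4 of the high set and Bbc3 had none. Across all genes with an annotated 3′ UTR that were tested, the median log2 ratio in ESCs was 0.48 in 8594 genes without a match, 0.08 in 2321 genes with 1 and -0.34 in 1239 genes with 2 or more. In EpiLCs the medians were 0.54, 0.16 and -0.24. The genes with more matches also had longer 3′ UTRs, with medians of 777, 1740 and 2748 bases, so motif and length move together in these genes. By length, Bcl2 (5086 bases) and Bcl2l11 (4218 bases) came first among the members, with matches and low ratios. Bmf came next (3801 bases), with no match and a high ratio. Of the members with a seed match, Bmf lay in the high set and Bcl2, Bcl2l11 and Mcl1 in the low set. TATTTAT is shown because the members with and without it differ in this ratio, so their split is a description only. The part of either motif, or of 3′ UTR length, in these ratios was not tested.

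**Figure D3:**
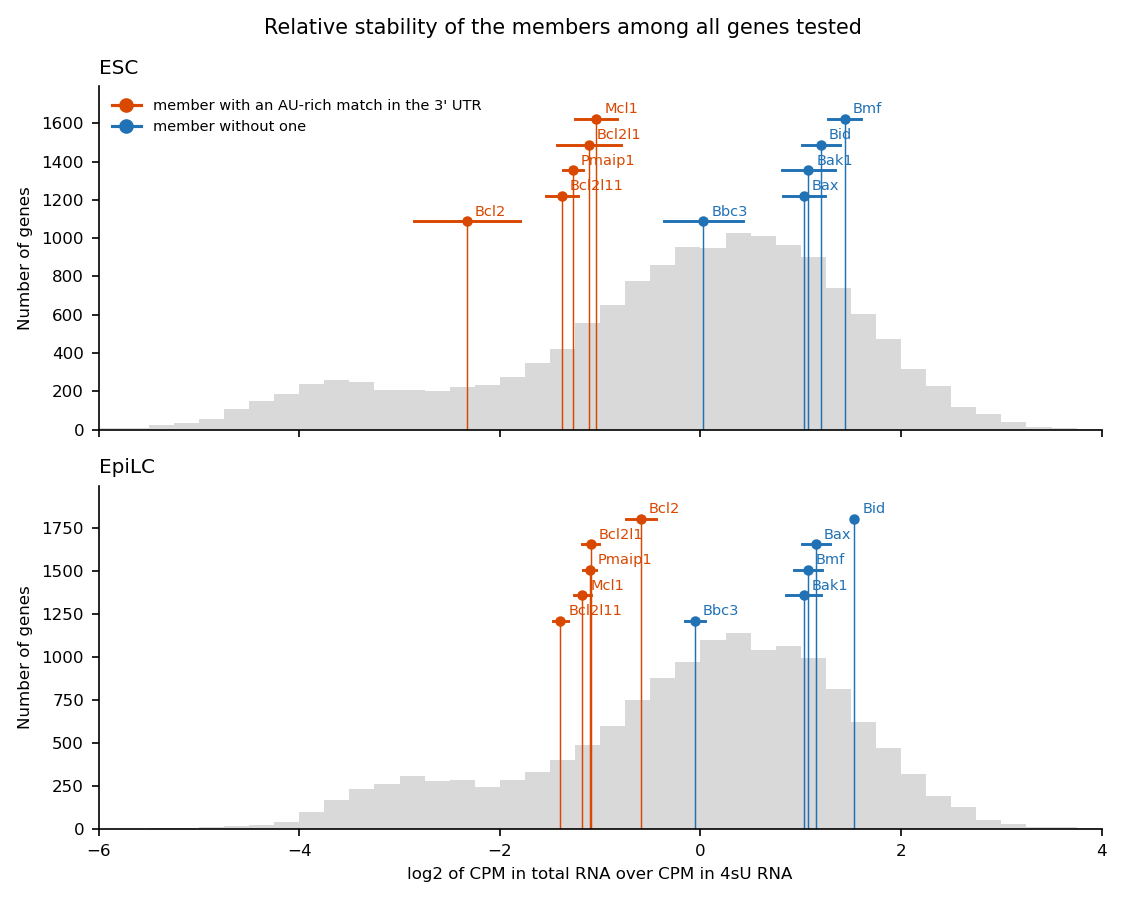
Distribution of the log2 ratio of total to 4sU CPM over all 14731 genes tested (grey bars, number of genes; the axis is drawn from -6 to 4) in ESCs and EpiLCs, with the mean of each member as a line and its SD over 3 ratios as a horizontal bar. The 5 members with an AU-rich match (orange) lie left of Bbc3, and Bax, Bak1, Bid and Bmf (blue) lie right of it, in both cell types. The heights of the labels carry no value.

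Levels of different members were compared per length, as CPM per kb of exonic length. For Bax this length includes the 192 bases shared with Gm45808, so its values per length and the effector sums below may be too low. In ESC total RNA the order was Mcl1 at 148 CPM per kb, Bax at 131, Bak1 at 37.3, Bid at 27.9, Pmaip1 at 21.3, Bbc3 at 18.4, Bcl2l1 at 12.5, Bmf at 7.97, Bcl2l11 at 3.04 and Bcl2 at 0.0655. The library ranges of Mcl1 (123.2 to 160.9) and Bax (103.3 to 145.6) overlapped, as did those of Pmaip1 (18.78 to 23.2) and Bbc3 (16.01 to 19.72). The other 7 pairs of neighbours lay apart. Within each library Mcl1 was above Bax, whereas Pmaip1 and Bbc3 changed places between libraries. In EpiLC total RNA no neighbours overlapped. Mcl1 was at 183 ± 5.12 CPM per kb (SD, n = 3), Bax at 109 ± 4.18 and Pmaip1 at 94.9 ± 1.62, which had moved from place 5 to place 3. Bbc3 at 31.8, Bak1 at 24.6, Bid at 19.2, Bcl2l11 at 8.80, Bcl2l1 at 7.90, Bmf at 5.54 and Bcl2 at 3.26 followed. Bcl2 therefore remained the lowest member per length in EpiLC total RNA in spite of its 55.3-fold rise.

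In nascent RNA Mcl1 was far ahead of the others in both cell types, at 303 ± 41.3 CPM per kb in ESCs and 415 ± 12.9 in EpiLCs. Bax at 63.6 and Pmaip1 at 51.9 CPM per kb came next in ESCs with overlapping ranges, Bax being the higher within each library. In EpiLCs Pmaip1 at 204 ± 6.17 lay above Bax at 49.0 ± 3.1. Bcl2 was the lowest in ESC nascent RNA at 0.308 CPM per kb, and Bmf the lowest in EpiLC nascent RNA at 2.62, below Bcl2 at 4.93.

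Summed per length over the classes, the 3 anti-apoptotic genes held 39.3 ± 0.15% (SD, n = 3) of the members' total RNA in ESCs and 39.8 ± 0.17% in EpiLCs, of which Mcl1 alone was 36.2% and 37.5%. The share of the 2 effectors was 41.3 ± 1.25% in ESCs and 27.4 ± 0.07% in EpiLCs, and that of the 5 BH3-only genes 19.4 ± 1.40% and 32.8 ± 0.22%. The effector sum in total RNA was 185.2, 185.7 and 135.4 CPM per kb in ESCs and 129.9, 135.1 and 135.8 in EpiLCs, so that the sums overlapped where the shares did not, and the BH3-only sum was 78.68 ± 6.81 and 160.3 ± 2.76. Pmaip1 went from 5.3 ± 0.26% to 19.4 ± 0.31% of the sum. In nascent RNA the share of the anti-apoptotic genes was 65.2 ± 3.23% in ESCs and 56.9 ± 0.79% in EpiLCs, and that of the BH3-only genes 18.6 ± 2.20% and 35.1 ± 0.87%. The anti-apoptotic share was lower in EpiLCs although the sum was higher, at 329.7 ± 41.8 CPM per kb in ESCs and 436.8 ± 14.5 in EpiLCs, beside a BH3-only sum of 93.62 ± 7.39 and 269.7 ± 8.16. The ranges over libraries of the effector and BH3-only shares did not overlap between the cell types in either assay. These shares describe RNA of the 10 members only, and are given without a test. Other genes of the family are not in them, among them Bok, which encodes a Bax-like protein. Bok was at 11.1 CPM per kb in ESC total RNA and 38.2 in EpiLC total RNA, and at 5.62 and 10.5 in nascent RNA. The effector shares and sums would differ with it included.

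**Figure D4:**
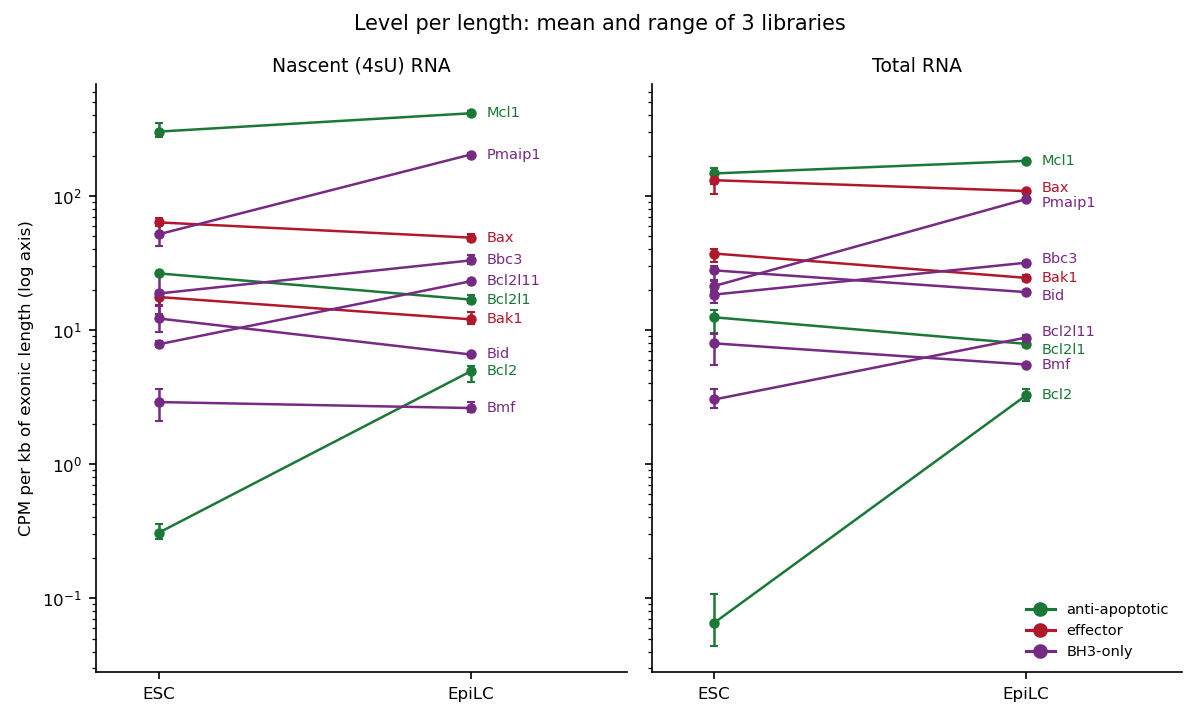
Level of each member per length (CPM per kb of exonic length, log axis) in ESCs and EpiLCs, in nascent and in total RNA. Points are means and bars the range of 3 libraries, with colours by class. Bcl2, Bcl2l11 and Pmaip1 rise steeply, Mcl1 has the highest mean in each of the 4 groups, and Bcl2 is the lowest in all but EpiLC nascent RNA.

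The rest of the pathway was read from 6 lists with 82 genes, of which 73 passed the filter. In total RNA 7 of the 73 rose and 8 fell, and in nascent RNA 6 rose and 6 fell, with medians of -0.14 and -0.08. None was called for stability by limma-voom, edgeR or DESeq2, while 21 of the 73 had an unadjusted p under 0.05 in limma-voom and 4 passed an adjusted p of 0.05 without a minimum fold (2 higher and 2 lower). Pooled over the 73, the called shares lay below the 27.6% and 25.5% of all genes given before, while single lists varied.

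Among 11 tested of 15 other Bcl2 family genes, 2 rose and 3 fell in total RNA. In nascent RNA 4 of the 11 were called by limma-voom, 3 by edgeR and 3 by DESeq2. Bok, which encodes a Bax-like protein, rose by 1.81 ± 0.13 in log2 (adjusted p = 2.80e-08), and in nascent RNA by 1.01 ± 0.28 (adjusted p = 6.89e-03). Bik, a BH3-only gene, had a log2 fold change of 1.99 ± 0.23 at a mean of 3.27 CPM. It was at a mean of 1.29 CPM in ESC total RNA and passed the filter on low counts through its EpiLC libraries. Bcl2l14 fell, with a log2 fold change of -2.35 ± 0.26 in total RNA and -2.23 ± 0.42 in nascent RNA. This gene was at a mean of 2.25 CPM in EpiLC total RNA and passed the filter through its ESC libraries. Bad, whose BH3-only protein is held inactive by survival kinases, fell with a log2 fold change of -1.04 ± 0.15 in total RNA. The survival genes Bcl2a1a, Bcl2a1b and Bcl2a1d, near-identical copies known from blood cells, had 0 reads in all 12 libraries, and unique alignment cannot assign reads that fit several of them.

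Downstream of mitochondria, 1 of 19 caspase, apoptosome and inhibitor genes rose and 1 fell in total RNA. Casp8, the initiator caspase that cuts BID, rose by 1.60 ± 0.26 in log2 (adjusted p = 8.32e-05) at a mean of 4.66 CPM. Aifm1, which encodes a mitochondrial flavoprotein, had a log2 fold change of -1.17 ± 0.10 (adjusted p = 1.92e-07). Of 7 tested genes of the death receptor pathway 2 rose in total RNA and none fell. They were Cflar, an inhibitor of caspase-8, at 1.43 ± 0.16 (and 1.39 ± 0.20 in nascent RNA), and the TRAIL receptor Tnfrsf10b at 1.02 ± 0.16. None of the 12 tested partners and turnover factors of Bcl2 family proteins was called in either assay by limma-voom, edgeR or DESeq2, though 7 had an unadjusted p under 0.05 in total RNA and 8 in nascent RNA, and by adjusted p alone 1 was higher and 6 lower in total RNA, and 3 higher and 4 lower in nascent RNA.

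Upstream of the BH3-only genes, 1 of 16 genes for p53 and its targets rose and 3 fell in total RNA. Perp, which encodes a membrane protein of cell junctions, had a log2 fold change of 1.87 ± 0.13 in total RNA and 1.72 ± 0.23 in nascent RNA. Cdkn1a, the cell cycle inhibitor p21, fell with a log2 fold change of -1.02 ± 0.20 in total RNA, and Ei24 with -1.03 ± 0.07. In nascent RNA 2 rose and 2 fell, with Btg2 at 1.38 ± 0.19, Sesn1 at -1.18 ± 0.16 and Mdm4, an inhibitor of p53, at -1.55 ± 0.18. Of 8 tested transcriptional regulators of BH3-only genes, Trp73, a relative of p53, rose by 1.19 ± 0.19 in log2 total RNA. E2f1 fell in both assays, with log2 fold changes of -1.25 ± 0.15 and -1.32 ± 0.16, and Trib3 fell in nascent RNA with -1.15 ± 0.23.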

How the data were processed

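The authors deposited 1 table of gene counts for 12 libraries, with exonic lengths. Per the labels and file headers, single-end 50-base stranded reads from RNA depleted of rRNA (either of 2 Kapa stranded kits, not assigned to libraries) were trimmed with cutadapt 1.14, aligned to mm10 with STAR 2.5.3a, and unique alignments were counted by strand with featureCounts 1.5.3 on GENCODE basic annotation with 92 spike-in entries, all at 0. Symbols came from GENCODE (99.6% of genes). Members and lists were chosen with earlier results of these data known. The filter asked for 3 CPM or more in 3 or more libraries, which left 14731 genes. TMM factors and 1 limma 3.58.1 voom model of the 4 groups were fitted (R 4.3.3, edgeR 4.0.16), tested on simulated counts, with DESeq2 1.42.0 as an alternative. Called means adjusted p under 0.05 and a log2 fold change beyond 1. Ratios used a prior of 0.5 counts. Named list genes were, per list and contrast, up to 2 called rises and 2 falls, the largest, with a mean of at least 3 CPM. One 3′ UTR a gene (principal, then longest transcript) was searched. One member on chromosome 18 has no sequence shown.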

Additional observations from a re-analysis of the deposited data

Results flagged for a closer look

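Bcl2 was flagged because its change between the cell types differed between total and nascent RNA by a test of the difference itself (limma-voom interaction, log2 difference 1.80, adjusted p = 0.037). Its adjusted p ranged from 3.51e-03 to 0.12 over 21 alternatives, the log2 difference stayed between 1.59 and 2.11, and 12 alternatives put the adjusted p over 0.05. Bcl2 had 7 to 10 reads in each ESC total library and 12 to 14 in each ESC 4sU library.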

How the results depend on the processing

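The calls of Bcl2, Bcl2l11 and Pmaip1 in total and nascent RNA held under all 21 alternatives: other size factors, no filter, edgeR, DESeq2, sample weights, a replicate block, each library left out, both ESC libraries numbered 3 left out, and no minimum fold. By adjusted p alone, 9 members were called in total and 8 in nascent RNA, and 47 and 35 genes of the other lists, with 4 of these for stability. In nascent RNA 3 to 5 members were called with 1 library left out and 5 without both ESC libraries numbered 3. The stability call of Bcl2 was lost with no filter (0 members called, with more genes tested), and 0 to 1 members were called with 1 library left out (fewer samples). Of the other lists, 1 gene passed for stability with library totals, 1 with sample weights, 1 without both ESC libraries numbered 3, and 0 to 1 with 1 library left out. The cause of these changes was not tested.

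Differences near 0 changed sign without passing a threshold, all for stability. Bcl2l1 was at 0.058 with library totals and from -0.17 to 0.090 with 1 library left out. Bcl2l11 was at -0.081 with median-of-ratios factors, -0.099 with no filter, -0.017 with edgeR, -0.096 with DESeq2 and -0.0067 with the replicate block, and from -0.094 to 0.11 with 1 library left out. Bax was at -0.011 with no filter and from -0.040 to 0.19, Bak1 at 0.028 with library totals and from -0.14 to 0.075, and Bbc3 from -0.33 to 0.15 with 1 library left out.

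The study divided the RNA of each labelled sample between the assays. The labels do not say that a number marks such a pair, or a culture shared across cell types. Deviations of same-numbered 4sU and total libraries correlated at 0.174, 0.3 and 0.409 in ESCs but at 0.0714, 0.0299 and 0.0194 in EpiLCs. Those of ESC and EpiLC libraries correlated at -0.0134 to -0.0836, which does not bear on pairs of 4sU and total libraries. The main tests did not take the numbers as pairs, and the replicate block gives the tests that do. The ratios of total to 4sU RNA within a cell type were formed between libraries of 1 number, and their SDs rest on that matching. With the replicate block, 3, 3 and 1 members were called in total RNA, nascent RNA and stability, as without it, Bcl2 had an adjusted p of 0.0145 for stability, and 528 instead of 227 of all genes were called for stability. Not every sample correlated best with its own number. Sample weights called 846. Of 100 relative stabilities recomputed, 24 moved by more than their SD, and of 40 levels per length, 13 did with the length of 1 transcript, which exchanged 2 places in the order of ESC total RNA and none in the other 3 groups.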
